A study of Rattus norvegicus with 14 samples.

Results

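The adenylyl cyclases and the catalytic subunits of protein kinase A (PKA) were followed in cultured rat hippocampal neurons and astrocytes given the neurosteroid allopregnanolone (Allo). The members were 9 genes named by symbol, the 7 cyclases Adcy1, Adcy2, Adcy3, Adcy5, Adcy6, Adcy8 and Adcy9 and the 2 catalytic subunits Prkaca and Prkacb. They were 9 of the 18239 genes listed for neurons and 9 of the 31791 listed for astrocytes. In both cultures the mean normalized count of all 9 reached 10, the level required for a test, which left 15314 neuron genes and 15380 astrocyte genes. Adcy1, Adcy5 and Prkacb belong to gene lists that the study drew from these same libraries, so a higher level of these 3 genes in neurons is not independent evidence. Gnao1, Ppp1r1a, Cadm1, Cnr1 and Syn3, named further below, are in those lists too, and the same holds for their neuron values.

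Both cultures came from Sprague Dawley rat embryos at embryonic day 18. The hippocampal neurons, on day 10 in culture, spent 4 h in the supplement-reduced medium that the study calls the Aging Model (AM) and then 16 h with vehicle (AM-Veh, 0.001% ethanol) or 100 nM Allo (AM-Allo). There were 4 AM-Veh and 4 AM-Allo neuron libraries, numbered 1-1, 1-2, 2-1 and 2-2 in each group, and the sources used here do not say what the first part of that number stands for. Libraries that share it are called set 1 and set 2 below. The astrocytes, taken from mixed glia after shaking off other cells, spent 24 h in AM medium with charcoal-stripped serum and then 24 h with vehicle or 100 nM Allo, with 3 libraries a group. Nothing in the sources says that the libraries of a group came from separate cultures, so p-values measure the spread between these libraries, which may be technical.

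Adenylyl cyclases make cyclic AMP (cAMP) from ATP, and cAMP frees the PKA catalytic subunits from their regulatory subunits so that they can phosphorylate channels, receptors and the transcription factor CREB. The membrane cyclases differ in what they respond to. In hippocampal neurons the calcium- and calmodulin-stimulated cyclases Adcy1 and Adcy8 couple calcium entry to cAMP and are known for their part in synaptic plasticity, whereas Adcy5 and Adcy6 are inhibited by calcium.

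Values are normalized read counts, made by the authors' pipeline for each cell type separately. Estimated reads on genes ranged from 19600000 to 25100000 per neuron library and from 22200000 to 28600000 per astrocyte library. The neuron cultures held neuron markers (9 of 10 listed, all 9 at a mean of at least 10, sum 53132 to 64010) beside astrocyte markers (8 of 8 listed, sum 191365 to 252263), oligodendrocyte lineage markers (9 of 9, sum 38615 to 45659) and few microglial markers (7 of 8 listed, sum 107.6 to 183.2). The astrocyte cultures held 8 of 8 astrocyte markers with sums of 225237 to 239610. Their microglial list summed to 1147 to 1493 and their neuron list to 26698 to 28283. In these cultures the neuron markers Rbfox3, Nefl and Slc17a7 had AM-Veh means of 0.46, 1.685 and 1.319, although Stmn2 was at 21790 and Gad1 at 1803. Their mesenchymal and endothelial list summed to 53639 to 62130. Pecam1 and Cldn5 of that list were at 0 or not listed in both. In such bulk samples, fewer cells of a type and less RNA per cell cannot be told apart.

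The promoters of the genes are shown for the 2 catalytic subunits, whose balance is described below, and for Adcy5, a cyclase that, like Prkacb, was higher in the set 2 AM-Allo libraries. RefSeq windows (build GRCr8, a different assembly from the one the authors used), 250 bases before to 50 after the annotated gene start, were matched for 6 of the 9 members and not for Adcy3, Adcy6 and Adcy8. The letters TGACGTCA, the full cAMP response element to which CREB binds, were in 0 of the 6 windows and in 1.83% of 33469 windows. Its shorter core site, TGACG or CGTCA on the other strand, which lies within the full element, was in 3 of the 6 (Prkaca, Prkacb and Adcy9) and in 21.2% of all. The GC box, GGGCGG or CCGCCC, was in 5 of the 6 and in 33.1% of all. The 6 windows were 69.0% to 84.7% G or C, and the windows they are set against were not matched for that. The 250 bases before the start follow, 5′ to 3′ on the gene's strand, with core sites and GC boxes in capitals. Prkaca lies at chr19:41083190-41083439 (minus strand), Prkacb at chr2:238386316-238386565 (minus strand) and Adcy5 at chr11:79123344-79123593 (minus strand).
Prkaca: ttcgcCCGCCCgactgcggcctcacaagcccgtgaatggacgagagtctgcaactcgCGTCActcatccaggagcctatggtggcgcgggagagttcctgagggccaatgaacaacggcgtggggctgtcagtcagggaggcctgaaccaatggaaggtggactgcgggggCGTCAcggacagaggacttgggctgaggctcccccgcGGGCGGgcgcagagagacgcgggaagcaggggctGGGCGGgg
Prkacb: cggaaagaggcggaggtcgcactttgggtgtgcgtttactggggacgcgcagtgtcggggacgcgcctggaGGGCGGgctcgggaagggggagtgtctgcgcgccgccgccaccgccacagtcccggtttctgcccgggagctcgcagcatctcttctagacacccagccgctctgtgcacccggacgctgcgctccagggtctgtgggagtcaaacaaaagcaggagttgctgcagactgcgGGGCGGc
Adcy5: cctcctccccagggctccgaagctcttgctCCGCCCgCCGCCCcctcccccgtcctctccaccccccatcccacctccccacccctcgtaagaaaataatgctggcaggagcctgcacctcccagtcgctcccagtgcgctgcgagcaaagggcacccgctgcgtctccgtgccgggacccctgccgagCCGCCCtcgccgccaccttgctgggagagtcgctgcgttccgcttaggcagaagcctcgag
The Prkaca core sites began 193 and 79 bases before the start, and that of Prkacb lay 25 bases after it, outside the stretch shown. The Prkaca window also held an ATG with an open frame of 50 codons to its end, and the Adcy1 window one of 63 codons, so either may include coding sequence.

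The first question was how the isoforms were balanced in each culture. Shares are a gene's percent of the summed normalized counts of the 7 cyclases, or of the 2 catalytic subunits, in the same library. They are not corrected for transcript length, so they are compared for the same gene between libraries and not between genes. The neuron cultures also held astrocyte and oligodendrocyte lineage markers, so neuron values here and below are those of the mixed culture. In AM-Veh neurons Adcy2, a cyclase stimulated by G protein beta-gamma subunits, held 32.8 ± 2.42% of the cyclase counts (SD, n = 4), Adcy6 held 18.4 ± 1.86%, Adcy1 held 17.9 ± 1.16% and Adcy5 held 16.6 ± 0.276%. Adcy3, known from primary cilia, held 8.003 ± 0.521%, Adcy8 held 4.11 ± 0.632% and Adcy9, a cyclase that responds weakly to forskolin, held 2.13 ± 0.0878%. In AM-Veh astrocytes the cyclase counts lay mainly on Adcy6 (46.8 ± 1.23%, n = 3) and Adcy5 (36.3 ± 0.392%), with Adcy3 at 7.34 ± 0.468%, Adcy2 at 5.56 ± 0.513%, Adcy9 at 2.35 ± 0.104%, Adcy8 at 1.56 ± 0.0220% and Adcy1 at 0.142 ± 0.0570%.

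By regulatory class, the calcium-stimulated pair Adcy1 and Adcy8 held between 21.6% and 26.9% of the cyclase counts across the 8 neuron libraries. Across the 6 astrocyte libraries this pair held between 1.43% and 2.04%. Adcy3, often grouped with the calcium-stimulated cyclases, was left out of the pair, and in astrocytes its share exceeded that of the pair. Counting Adcy3 in would make the ratio between the cultures smaller. The calcium-inhibited pair Adcy5 and Adcy6 held 32.8% to 36.4% in neurons and 82.1% to 83.7% in astrocytes. The ranges of the 2 cultures were far apart for both pairs, as the plot of isoform balance shows. Those of Adcy3 (6.73% to 8.54% in neurons, 6.90% to 8.21% in astrocytes) and Adcy9 (1.82% to 2.23% and 1.99% to 2.47%) overlapped.

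**Figure D1:**
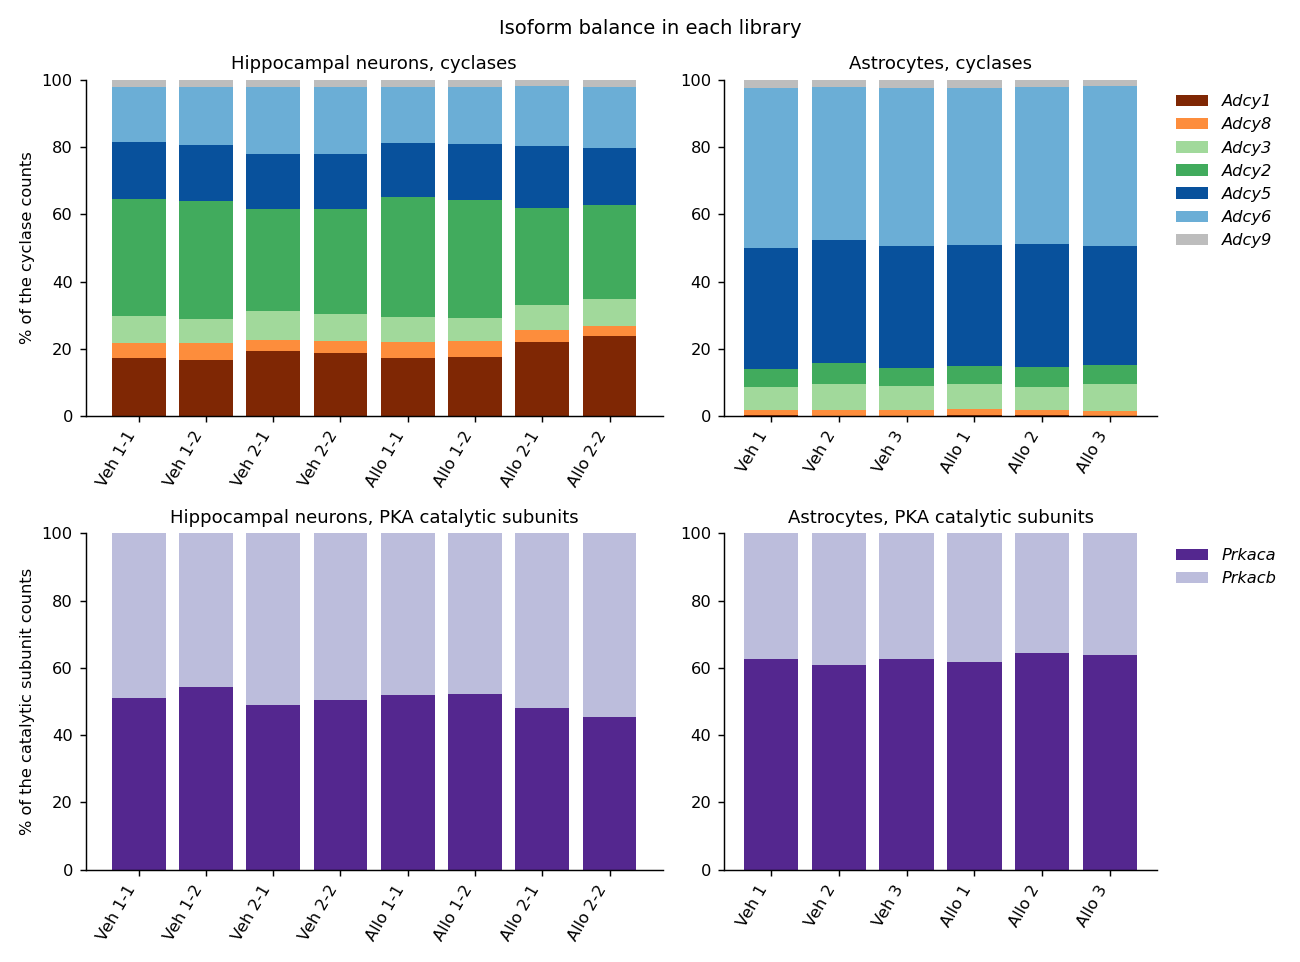
Percent of the summed normalized counts held by each of the 7 cyclases (top) and by the 2 PKA catalytic subunits (bottom), 1 bar for each of the 8 neuron and 6 astrocyte libraries. Adcy1 (16.8% to 23.7%) and Adcy2 (28.2% to 35.8%) form wide bands in the neuron bars, Adcy5 and Adcy6 together fill 82.1% to 83.7% of the astrocyte bars, and Prkaca holds 45.5% to 54.4% of the catalytic counts in neurons and 61.0% to 64.5% in astrocytes.

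Of the catalytic counts, Prkaca, which encodes the C-alpha subunit, held 51.2 ± 2.28% in AM-Veh neurons and 49.4 ± 3.26% in AM-Allo neurons. In astrocytes it held 62.2 ± 1.02% in AM-Veh and 63.4 ± 1.46% in AM-Allo. The range over neuron libraries, 45.5% to 54.4%, lay below that over astrocyte libraries, 61.0% to 64.5%. Prkacb, which encodes C-beta, held the rest. The Adcy1 share in neurons was 17.1%, 16.8%, 19.2% and 18.6% in AM-Veh (libraries 1-1, 1-2, 2-1 and 2-2) and 17.2%, 17.4%, 22.1% and 23.7% in AM-Allo. The 2 highest shares were those of the set 2 AM-Allo libraries.

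The same contrast between cultures was seen gene by gene on the CPM scale, on which each library's normalized counts sum to 1000000. The 2 cell types were normalized separately and no test was made across them. Adcy1 was at 70.7 ± 2.34 CPM in AM-Veh neurons and 0.347 ± 0.124 in AM-Veh astrocytes, a ratio of 203.5 that rests on AM-Veh astrocyte counts of 6.31 to 11.6 per library. Adcy2 was 9.42 times higher in neurons (129.8 against 13.8 CPM) and Adcy8 4.20 times (16.3 against 3.87). Smaller ratios were found for Adcy3 (1.73), Prkacb (1.68) and Adcy9 (1.45). Adcy6 and Adcy5 went the other way, 1.6 and 1.37 times higher in astrocytes. For these 8 genes the ranges over neuron and astrocyte libraries did not overlap, whereas for Prkaca they did (119.3 ± 5.90 against 111.1 ± 1.93 CPM, a ratio of 1.07). The share of all genes whose ranges separated the cultures was not computed. Without it the count describes these genes and does not set them apart from others.

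The second question was whether Allo changed these genes in neurons. Of the 9 members, 2 were higher in AM-Allo at an unadjusted p under 0.05 (Adcy1 and Adcy5), against 5.69% of all genes tested in either direction and 3.21% in the higher direction. At an adjusted p under 0.05, 0 of 9 passed, against 0.0261% of all genes, by limma with Benjamini-Hochberg adjustment. The median log2 fold change of the 9 was 0.04, beside 0.00 (-0.00153) for all genes, and 7 of 9 were above 0, beside 49.2% of all genes. That median lay between -0.0109 and 0.0845 when single libraries were left out, and below 0 in 4 of 8 cases. When the first part of the replicate number entered as a block, 3 of 9 were higher at an unadjusted p under 0.05 (Prkacb in addition), against 11.0% of all genes and 5.76% in the higher direction, and 0 of 9 passed the adjusted threshold, against 0.679%.

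Adcy1 was at 1561, 1501, 1646 and 1555 normalized counts in AM-Veh libraries 1-1, 1-2, 2-1 and 2-2, and at 1591, 1632, 1989 and 2193 in the AM-Allo libraries of the same numbers. Both set 2 AM-Allo libraries lay above every AM-Veh library, while both set 1 AM-Allo libraries lay within the AM-Veh range, so the groups overlapped. Of the 4 pairs with the same number, 4 had the higher value in AM-Allo, and both set 1 AM-Allo libraries lay above both set 1 AM-Veh libraries. The means were 1566 ± 60.2 and 1851 ± 289 (SD, n = 4), a log2 fold change of 0.23 ± 0.092 (SE, limma adjusted p = 0.796). With the block the limma adjusted p was 0.0908. Over 19 alternatives that used both sets the adjusted p ranged from 0.0698 (variance-stabilized, VST, values without a block) to 0.999. The two-sided exact permutation test gave p = 0.0857, where 4 libraries against 4 allow no p below 0.0286. The unadjusted limma p was above 0.05 when AM-Veh 1-1, AM-Veh 1-2, AM-Veh 2-2, AM-Allo 2-1 or AM-Allo 2-2 was left out, with log2 fold changes of 0.23, 0.21, 0.23, 0.19 and 0.14.

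Adcy5 was at 1539, 1492, 1416 and 1358 in AM-Veh and at 1496, 1547, 1639 and 1563 in AM-Allo. The set 2 AM-Allo libraries and AM-Allo 1-2 were above all 4 AM-Veh libraries, and AM-Allo 1-1 lay within the AM-Veh range. The means were 1451 ± 80.4 and 1561 ± 59.1, a log2 fold change of 0.11 ± 0.047 (SE, limma adjusted p = 0.865, exact permutation p = 0.0571). Its unadjusted limma p was above 0.05 without AM-Veh 2-1, AM-Veh 2-2, AM-Allo 1-2, AM-Allo 2-1 or AM-Allo 2-2, with log2 fold changes of 0.09, 0.07, 0.11, 0.08 and 0.11.

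Prkacb was at 2612, 2304, 2679 and 2479 in AM-Veh and at 2526, 2524, 2931 and 2910 in AM-Allo. The 2 highest values were again those of the set 2 AM-Allo libraries. The means were 2519 ± 166 and 2723 ± 229, a log2 fold change of 0.11 ± 0.064 (SE, limma adjusted p = 0.921, exact permutation p = 0.229). With the block its unadjusted limma p was under 0.05 and its adjusted p 0.336, which ranged from 0.227 (VST values without a block) to 0.999 over 19 alternatives. Its partner Prkaca was at 2721, 2745, 2571 and 2529 in AM-Veh and at 2740, 2748, 2705 and 2426 in AM-Allo, a log2 fold change of 0.01 with a 95% interval of -0.10 to 0.11.

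The remaining 5 cyclases gave log2 fold changes between -0.04 and 0.05 in neurons. For Adcy6 the 95% interval was -0.10 to 0.12, for Adcy3 it was -0.18 to 0.09 and for Adcy9 -0.21 to 0.19. The intervals were wider for Adcy2 (-0.18 to 0.26) and Adcy8 (-0.35 to 0.44), whose libraries separated by set. The AM-Veh and AM-Allo ranges overlapped for all 9 members in neurons, against 3.95% of genes whose ranges did not.

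**Figure D2:**
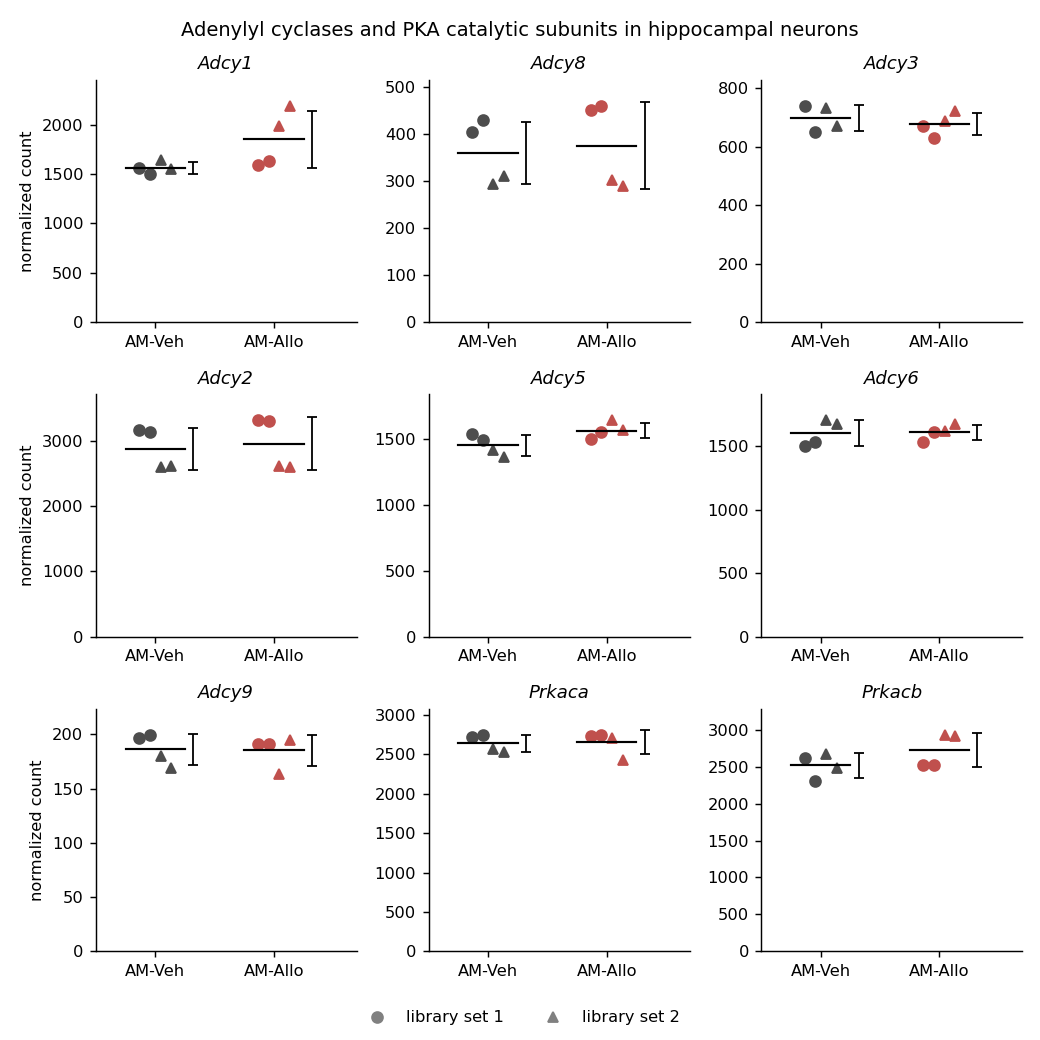
Normalized count of each of the 9 genes in the 8 neuron libraries (y axes from 0). Circles are set 1 and triangles set 2, horizontal lines are group means and bars to the right are the SD (n = 4). The 2 AM-Allo triangles of Adcy1 lie at 1989 and 2193, above the other 6 libraries, and the triangles of Adcy2 and Adcy8 lie below the circles in both groups.

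Within set 1, 0 of 9 members differed between AM-Allo and AM-Veh at an unadjusted p under 0.05 (7.25% of all genes) and 0 of 9 at an adjusted p under 0.05 (0.170%), by limma with the spread pooled over both sets. Within set 2, 3 of 9 were higher at an unadjusted p under 0.05 (13.6% of all genes, 7.33% in the higher direction) and 2 of 9 at an adjusted p under 0.05 (1.97%, and 1.52% in the higher direction). The split by set, here and below, was added after the data were seen, so its p-values are not those of a planned test. Adcy1 rose in set 2 from a mean of 1601 to 2091, a log2 fold change of 0.38 ± 0.053 (SE, n = 2 a group, limma adjusted p = 0.00157). Adcy5 rose in set 2 from 1387 to 1601, by 0.21 ± 0.048 on the log2 scale (limma adjusted p = 0.0378). Prkacb was at 2579 and 2921, a log2 fold change of 0.18 ± 0.053 (limma adjusted p = 0.110).

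In set 1 the corresponding log2 fold changes were 0.07 for Adcy1 (limma adjusted p = 0.814), 0.01 for Adcy5 (adjusted p = 0.991) and 0.04 for Prkacb (adjusted p = 0.904). The difference in response between the sets was 0.31 ± 0.074 for Adcy1 (limma adjusted p = 0.173) and 0.20 ± 0.067 for Adcy5 (adjusted p = 0.342) on the log2 scale. For Prkacb the difference was 0.14 with a 95% interval of -0.02 to 0.30. In all, 2 of 9 members differed between sets in their response at an unadjusted p under 0.05, against 9.53% of all genes, and 0 of 9 at an adjusted p under 0.05, against 0.0784%.

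Neuron markers were also higher by sum in the set 2 AM-Allo libraries. Their summed count was 57638 and 53132 in the set 2 AM-Veh libraries and 64010 and 62075 in the set 2 AM-Allo libraries, and 5 of 9 listed neuron markers (Map2, Slc17a7, Stmn2, Syn1 and Tubb3) were higher in both AM-Allo than in both AM-Veh libraries of set 2. In set 1 the sums were 58992 and 54891 in AM-Veh and 58164 and 55910 in AM-Allo, with 2 of 9 markers higher and 5 of 9 lower. The astrocyte list summed to 240230 and 252263 in set 2 AM-Veh and to 229699 and 244859 in set 2 AM-Allo, with 0 of 8 markers higher and 5 of 8 lower. In set 1 it had 2 of 8 higher and 1 lower. Of the oligodendrocyte lineage markers 5 of 9 were higher and 1 lower in set 2, with sums of 38615 and 39085 in AM-Veh and 39339 and 38776 in AM-Allo, and 6 of 9 were higher in set 1 (42602 and 43079, 45659 and 44983). Of the mesenchymal and endothelial markers 3 of 7 were higher and 1 lower in set 2 (793.0 and 674.3, 806.6 and 823.0), and 1 was lower in set 1 (1358 and 1023, 2157 and 948.2). Of the microglial markers 1 of 7 was lower in set 2, and 4 were higher and 1 lower in set 1. These counts of markers compare 2 libraries with 2, where such separation arises easily by chance, and have no share over all genes beside them. The part of the marker differences in the Adcy1, Adcy5 and Prkacb values was not tested.

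**Figure D3:**
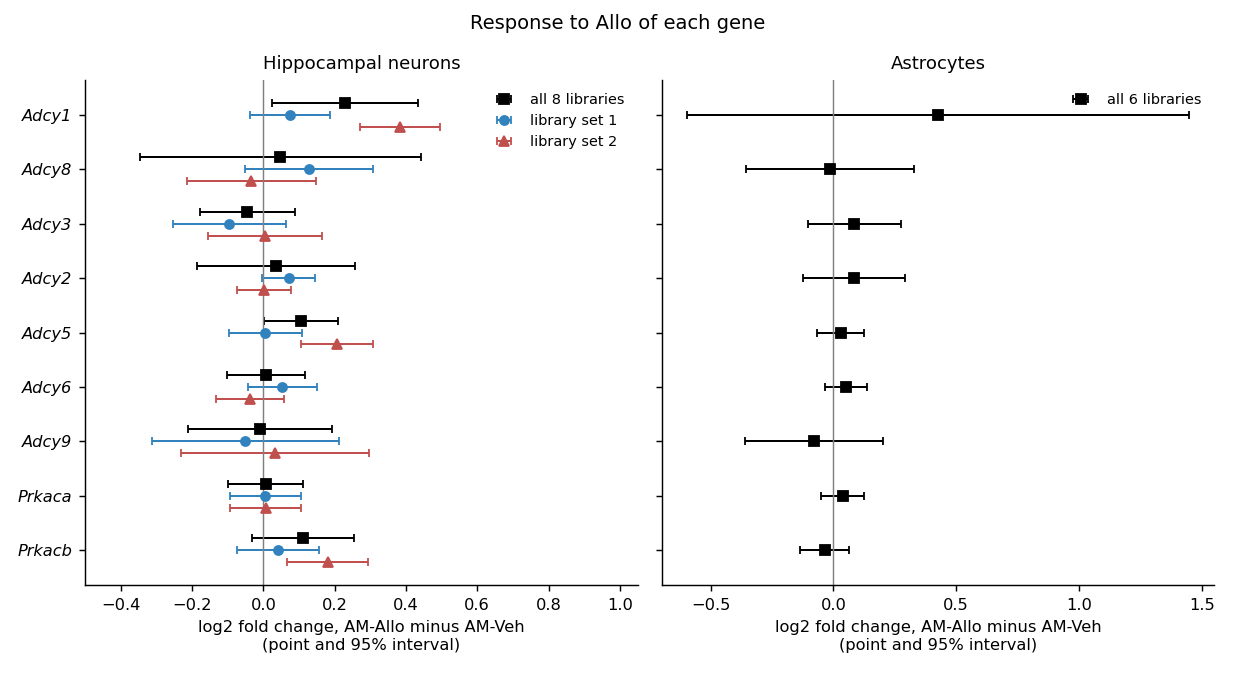
Log2 fold change of AM-Allo over AM-Veh for the 9 genes with its 95% interval, in neurons (left, all 8 libraries, set 1 and set 2) and astrocytes (right, all 6 libraries, with its own x scale). In neurons the set 2 points of Adcy1 (0.38), Adcy5 (0.21) and Prkacb (0.18) lie to the right of their set 1 points, and in astrocytes every interval includes 0.

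The sets themselves also differed. With treatment as the other term, 6 of 9 members differed between set 2 and set 1 at an unadjusted p under 0.05 (29.3% of all genes) and 5 of 9 at an adjusted p under 0.05 (17.2%), by limma. Adcy8 was lower in set 2, with 404.7, 429.9, 451.0 and 461.1 in the set 1 libraries and 294.6, 311.9, 302.6 and 289.9 in the set 2 libraries, a log2 difference of -0.54 ± 0.062 (limma adjusted p = 2.19e-05). Adcy2 was lower as well, 3127 to 3312 in set 1 and 2595 to 2608 in set 2, a log2 difference of -0.31 ± 0.027 (limma adjusted p = 1.16e-06). Neither gene's sets overlapped, and the Adcy2 and Adcy8 log2 values ran together over the 8 libraries (Pearson r = 0.989), points that share the set difference.

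Adcy1, Prkacb and Adcy6 were higher in set 2, by 0.22 (limma adjusted p = 0.0125), 0.14 (adjusted p = 0.0317) and 0.11 (adjusted p = 0.0326) on the log2 scale. For the first 2 genes most of the difference lay in AM-Allo. The set 1 and set 2 means of Adcy1 were 1531 and 1601 in AM-Veh and 1612 and 2091 in AM-Allo, and those of Prkacb 2458 and 2579 in AM-Veh and 2525 and 2921 in AM-Allo. Without AM-Allo 1-1 the limma adjusted p of Adcy1 was 0.0605. That of Prkacb was above 0.05 without each of 6 libraries, all but AM-Veh 1-1 and 2-2 (up to 0.111), and that of Adcy6 without each of 6, all but AM-Allo 1-2 and 2-1 (up to 0.101). Without the variance trend the 3 limma adjusted p-values were 0.117, 0.168 and 0.0943, and with quantile normalization that of Adcy6 was 0.0525. Those of Adcy2 and Adcy8 stayed under 0.05 in all these settings. Prkaca was lower by 0.10 ± 0.033, with an adjusted p of 0.0514 by limma. The sets did not overlap for 4 members, Adcy8, Adcy2, Adcy6 and Prkaca, against 19.6% of all genes. The sums of other cell types' markers also separated the sets. Astrocyte markers summed to 191365 to 203366 in set 1 and 229699 to 252263 in set 2, microglial markers to 107.6 to 124.3 and 166.9 to 183.2, and oligodendrocyte lineage markers to 42602 to 45659 and 38615 to 39339. Gfap, the most counted astrocyte marker, ranged from 68164 to 118740 over the neuron libraries. Slc1a3 ranged from 57387 to 62381 and Aqp4 from 23234 to 28476. Cd68, the most counted microglial marker, ranged from 59.11 to 134.5, and each of the others stayed at or below 25.06. The astrocyte and microglial sums thus weigh Gfap and Cd68 most and do not show that every marker separated the sets. Mesenchymal and endothelial markers summed to 948.2 to 2157 and 674.3 to 823.0, and the neuron sums of the sets overlapped. The part of these differences in the members' values was not tested.

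In astrocytes 0 of 9 members differed between AM-Allo and AM-Veh at an unadjusted p under 0.05, against 7.01% of all genes, and 0 of 9 at an adjusted p under 0.05, against 0.00650%, by limma. The median log2 fold change of the 9 was 0.04, beside 0.00 (0.00137) for all genes. Adcy6 was at 2681, 2731 and 2883 in AM-Veh and at 2847, 2855 and 2886 in AM-Allo, a log2 fold change of 0.05 with a 95% interval of -0.03 to 0.13. Adcy5 was at 2023, 2211 and 2207 in AM-Veh and at 2196, 2231 and 2141 in AM-Allo, 0.03 with an interval of -0.07 to 0.13. The groups of both calcium-inhibited cyclases overlapped.

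Prkaca was at 2631, 2624 and 2703 in AM-Veh astrocytes and at 2630, 2847 and 2695 in AM-Allo, a log2 fold change of 0.04 with a 95% interval of -0.05 to 0.12. Prkacb was at 1564, 1679 and 1601 and at 1632, 1568 and 1523, -0.04 with an interval of -0.14 to 0.06. Adcy1 was near the lower limit for testing, at 11.6, 6.31 and 6.90 in AM-Veh and 16.2, 15.5 and 5.25 in AM-Allo. Its AM-Veh mean of 8.28 was below 10, so it reached that limit only through AM-Allo (12.3), and its interval of -0.60 to 1.45 covers large changes in either direction. The log2 intervals were -0.35 to 0.33 for Adcy8, -0.11 to 0.27 for Adcy3, -0.12 to 0.29 for Adcy2 and -0.36 to 0.20 for Adcy9. The groups overlapped for all 9 members, against 12.5% of astrocyte genes whose groups did not, and with 3 libraries a group the exact permutation test can give no p below 0.1, so no p under 0.05 was possible with it. The test of a difference between the neuron and astrocyte responses was not made, since the tables were normalized separately.

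The other genes of the cAMP pathway, a list of 95, were read the same way. In neurons 85 were tested, and 7 differed at an unadjusted p under 0.05 (4 higher, 3 lower), against 5.69% of all genes (3.21% higher, 2.48% lower), with 0 at an adjusted p under 0.05, by limma. Their median log2 fold change was 0.01. With the block 13 passed the unadjusted threshold (7 higher, 6 lower), against 11.0% of all genes (5.76% higher, 5.24% lower), and 1 the adjusted one (Pde2a). The 6 that passed the unadjusted threshold only with the block were Gnao1, the Go alpha subunit (log2 fold change 0.06, limma adjusted p with the block 0.324), the anchoring proteins Akap6 (0.14, adjusted p = 0.377) and Akap11 (0.08, adjusted p = 0.405), Ppp1r1a (-0.12, adjusted p = 0.330), Prkx (-0.17, adjusted p = 0.421) and the pacemaker channel Hcn2 (-0.08, adjusted p = 0.430). Gnao1, Akap6 and Akap11 are named because of these values. Within set 1, 12 of 85 differed at an unadjusted p under 0.05 (4 higher, 8 lower), against 7.25% of all genes (3.66% higher, 3.59% lower), and 0 at an adjusted p under 0.05. Within set 2, 19 of 85 differed (18 higher, 1 lower), against 13.6% of all genes (7.33% higher, 6.25% lower), and 6 rose at an adjusted p under 0.05, against 1.97%, by limma. The response differed between sets at an unadjusted p under 0.05 for 18 of 85 (14 higher in set 2, 4 lower), against 9.53% of all genes (5.44% higher, 4.09% lower), and at an adjusted p under 0.05 for 1 (Pde1a). Adcy4, Vipr1, Ptger2, Akap4 and Cnga3 were not analysed here in neurons, nor Vipr1 in astrocytes.

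Phosphodiesterases break cAMP down. Of 13 tested, 2 were higher and 1 lower at an unadjusted p under 0.05, against 3.21% and 2.48% of all genes. Pde2a, stimulated by cyclic GMP, was at 2250, 2229, 2447 and 2262 in AM-Veh and 2530, 2654, 3049 and 3022 in AM-Allo, a log2 fold change of 0.29 ± 0.062 (limma adjusted p = 0.353, with the block 0.00287). All 4 AM-Allo libraries lay above all 4 AM-Veh libraries, against 3.95% of all genes whose groups did not overlap. Pde1a, a calcium- and calmodulin-activated enzyme, was at 499.7, 475.7, 329.7 and 331.6 in AM-Veh and 507.2, 533.7, 561.7 and 561.2 in AM-Allo, 0.43 ± 0.13 on the log2 scale (limma adjusted p = 0.652, with the block 0.0854). Its groups did not overlap either. Pde10a was at 572.2 ± 47.2 and 507.2 ± 25.9, a log2 fold change of -0.17 (limma adjusted p = 0.796, with the block 0.215).

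Pkia encodes an inhibitor of the catalytic subunits. It was the 1 of 3 inhibitors at an unadjusted p under 0.05, against 5.69% of all genes. Pkia was at 4759 ± 262 in AM-Veh and 5147 ± 65.1 in AM-Allo (log2 fold change 0.11, limma adjusted p = 0.719, with the block 0.161). Map2, a dendritic anchoring protein for PKA and also one of the neuron markers above, was at 24729 ± 682 and 26513 ± 649 (0.10, limma adjusted p = 0.677, with the block 0.104). It was the 1 of 15 anchoring proteins at that threshold without the block. The groups of both genes did not overlap, against 3.95% of all genes. Of 9 other cAMP effectors 2 were lower at an unadjusted p under 0.05, against 2.48% of all genes. They were the pacemaker channels, which bind cAMP, Hcn3 (503.5 ± 3.99 and 454.7 ± 26.2, log2 fold change -0.15) and Hcn4 (386.0 ± 51.5 and 309.8 ± 37.7, -0.32). The Hcn3 groups did not overlap either. None of the 13 stimulatory receptors, 7 G protein alpha subunits, 7 cyclase regulators, 4 regulatory subunits and 11 substrates or target factors tested in neurons passed an unadjusted p of 0.05 without the block.

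**Figure D4:**
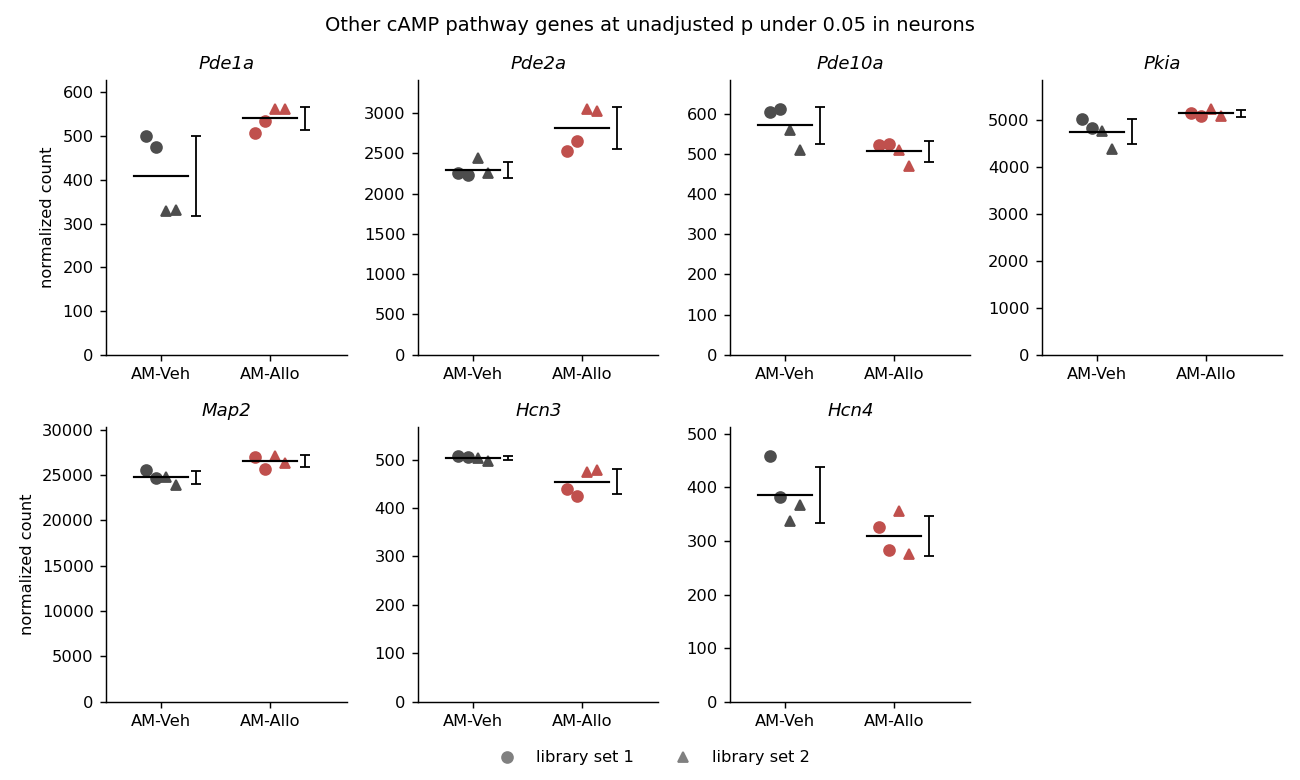
Normalized counts in the 8 neuron libraries of the 7 other cAMP pathway genes at an unadjusted p under 0.05 (y axes from 0). Circles are set 1 and triangles set 2, with the group mean as a line and the SD as a bar (n = 4). The AM-Veh triangles of Pde1a lie at 329.7 and 331.6, below the other 6 libraries. All AM-Allo points of Pde1a, Pde2a, Pkia and Map2 lie above the AM-Veh points, and all those of Hcn3 below them.

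In astrocytes 77 of the list were tested and 6 differed at an unadjusted p under 0.05 (1 higher, 5 lower), against 7.01% of all genes (3.72% higher, 3.29% lower), with 0 at an adjusted p under 0.05, by limma. The median log2 fold change was -0.02. The transcription factor Crem was at 357.7 ± 44.0 in AM-Veh and 432.4 ± 45.4 in AM-Allo (log2 fold change 0.27, limma adjusted p = 0.623). Pde1a was at 69.6 ± 5.54 and 44.2 ± 5.16, a log2 fold change of -0.65 (limma adjusted p = 0.476). Gnal, a stimulatory G protein alpha subunit, was at 132.8 ± 4.95 and 106.0 ± 13.1 (-0.33), Pde4a at 269.3 ± 8.69 and 230.8 ± 18.2 (-0.22), the regulatory subunit Prkar1b at 520.3 ± 17.2 and 461.1 ± 17.5 (-0.17) and Map2 at 3873 ± 192 and 3551 ± 248 (-0.13). The groups of Pde1a, Gnal, Pde4a and Prkar1b did not overlap, against 12.5% of all genes.

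The most counted gene of each role in AM-Veh was often the same in both cultures. The PACAP receptor Adcyap1r1 was at 14254 ± 1389 in neurons and 2038 ± 114 in astrocytes, the inhibitory G protein subunit Gnai2 at 16605 ± 792 and 21711 ± 117, and the regulatory subunit Prkar1a at 7083 ± 212 and 6078 ± 74.6. Prkx, a kinase related to PKA, was at 700.8 ± 108 and 409.6 ± 82.9. As the only gene of its role, Prkx had to lead in both cultures. Adcy7, the most counted cyclase outside the 9, was at 21.8 ± 3.65 and 43.1 ± 12.4, among 2 such cyclases listed in neurons and 3 in astrocytes. The roles with a different leading gene were the phosphodiesterases (Pde2a at 2297 in neurons, Pde3b at 1120 in astrocytes), the inhibitors (Pkia at 4759, Pkig at 1030), the anchoring proteins (Map2 at 24729, Akap12 at 5210), the other effectors (Hcn2 at 1139, the cAMP-activated exchange factor Rapgef3 at 351.0) and the substrates (Ppp1r1a at 1571, Ppp1r1b at 1662, both inhibitors of protein phosphatase 1). These counts come from tables normalized separately and are not corrected for length.

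The genes with the pattern most like each of Adcy1, Adcy5 and Prkacb were taken by Pearson correlation of log2 values over the 8 neuron libraries, among 11781 genes with a mean of at least 100. For Adcy1 they were Psd3 (0.987), Necab1 (0.983) and Cadm1 (0.981). For Adcy5 they were Tulp4 (0.980), Nova2 (0.975) and Atp6v1g2 (0.967). For Prkacb they were Cnr1, the CB1 cannabinoid receptor (0.996), Nt5dc3 (0.986) and Syn3, a synapsin of synaptic vesicles (0.966). Adcy1 and Prkacb correlated at 0.894 with each other. The 8 points share the treatment and set differences, and the correlations are a description.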

How the data were processed

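Stranded poly(A) RNA of 14 libraries was sequenced by the authors as 150-base paired reads, quantified with Salmon 0.14 on rat Ensembl release 95, summed to genes with tximport and normalized with DESeq2 1.18.1. The deposited normalized counts (unit signal, estimated counts divided by size factors) were used here, and the deposited log2-scale variance-stabilized (VST) values served as an alternative. In the neuron VST table the means of the 2 sets were equal in all 18239 genes (largest difference 7.5e-09), as after removal of a set term. Fits on these values without a block do not allow for such a removal, so their p-values would run too low. Genes with a mean of at least 10 were fitted on log2(normalized count + 1) with limma 3.58.1 (R 4.3.3), trended, two-sided, on each whole table, with Benjamini-Hochberg adjustment. Fold changes are on that scale. No count model was run, since the values are not counts. Depth was estimated from the smallest steps between low values.

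The numbers pair the neuron samples: residuals of libraries with the same number correlated at 0.229 to 0.296, and those sharing only the first part at 0.185 to 0.236, so fits with the first part as a block are given where they change a call. Values within each set, and the test of their difference, came from 1 limma fit with set by treatment groups and were added after the data were seen. The named genes were all members, pathway genes at an unadjusted p under 0.05, the most counted gene of each role (that of the cyclase regulators is not reported here), genes not listed, and the 3 genes most correlated with Adcy1, Adcy5 and Prkacb. The members, the pathway and marker lists and the tests were chosen with earlier results of these data known. Simulated data were used to check the fit. There were 0 unused sample columns. Alternatives covered pseudocount, filter, scaling, trend, VST, block and leaving out each library.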

Additional observations from a re-analysis of the deposited data

Results flagged for a closer look

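At an unadjusted p under 0.05, the response of Adcy1 to Allo in neurons differed between the library sets, set 2 minus set 1, by 0.31 on the log2 scale (limma adjusted p = 0.173), and that of Adcy5 by 0.20 (limma adjusted p = 0.342). The same difference was 0.67 for the phosphodiesterase Pde1a (limma adjusted p = 0.0388), 0.25 for the regulatory subunit Prkar1b (limma adjusted p = 0.387) and 0.16 for Pde2a (limma adjusted p = 0.421). The last 3 genes were among 18 of 85 pathway genes whose response differed between sets at that threshold, against 9.53% of all genes. In Pde1a the set 2 AM-Veh libraries, at 329.7 and 331.6, stood below all others.

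In groups of 4, the lowest or highest library was set apart where its gap to the next, as a share of the group's range, exceeded Dixon's critical value. The lowest AM-Allo neuron library was so set apart for Adcy9 (0.878 of the range, library 2-1 at 163.9) and for Prkaca (0.864, library 2-2 at 2426), and the highest AM-Veh library for Pde2a (0.850, library 2-1 at 2447). These were 3 of 32 groups tested, and chance gives about 1 in 20.

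Pde1a was higher in all 4 AM-Allo neuron libraries (log2 fold change 0.43) and lower in all 3 AM-Allo astrocyte libraries (-0.65) than in every AM-Veh library of the same culture. Groups did not overlap for 3.95% of all neuron genes and 12.5% of all astrocyte genes. The difference between cultures was not tested.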

How the results depend on the processing

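The count of members at an unadjusted p under 0.05 in neurons, 2 in the report, was 1 with quantile normalization, 0 without the variance trend, 0 within set 1 and 0 to 2 when single libraries were left out. The count at an adjusted p was 2 within set 2. With a replicate block by the first part or by the whole number it was 3 unadjusted and 0 adjusted, and the paired values that change a call stand in the report. Pathway genes in neurons, 7 in the report, numbered 17 on VST values without a block (14.4% of all genes), where p-values would run too low. They numbered 13 on VST values with the replicate block (11.1%), 13 with either block (11.0% and 10.7%), 12 within set 1 (7.25%) and 19 within set 2 (13.6%). In astrocytes, where same-numbered libraries shared only a number (-0.007 to 0.024), the replicate block gave 0 of 9 members and 8 pathway genes (7.17% of all genes).

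Member fold changes near 0 changed sign. Within set 2 they were -0.0334 (Adcy8), 0.00519 (Adcy3), -0.0375 (Adcy6) and 0.0327 (Adcy9), and Adcy8 in astrocytes gave 0.00085 with quantile normalization. Leaving out single libraries gave log2 ranges in neurons of -0.0613 to 0.161 for Adcy8, -0.0225 to 0.0934 for Adcy2, -0.0236 to 0.0378 for Adcy6, -0.0538 to 0.0487 for Adcy9 and -0.0145 to 0.0488 for Prkaca, in astrocytes of -0.136 to 0.0687 for Adcy8 and -0.0133 to 0.0509 for Adcy5, and for Adcy5 between sets of -0.0614 to 0.00465. The causes were not tested. The count of 6 members between sets was 6 or 7 throughout. All 126 shares recomputed without a library moved by less than 1 SD. Leaving out 1 library of a group cannot move its mean by more, so this does not test stability. The set comparison could not be fitted on VST values, and shares per transcript length were not run. Adcy1 in astrocytes, at 5.25 to 16.2 per library, had an interval of -0.60 to 1.45.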
